A study of Homo sapiens with 12 samples.

Results

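The KLF transcription factors described here are 10 genes, KLF2, KLF3, KLF4, KLF5, KLF6, KLF7, KLF9, KLF10, KLF11 and KLF15, looked up by symbol among the 60671 genes of the count table, where all 10 were found. RNA was measured in BJ-5ta cells, a line of human foreskin fibroblasts that all carry the hTERT telomerase gene for immortality, either wild type or ΔLEO1, a CRISPR/Cas9 knockout of a subunit of the PAF1 complex, which travels with RNA polymerase II. Cells of each genotype were taken from medium with 10% serum and after 10 days in 0.1% serum, the condition used to bring them into quiescence. The 4 groups of 3 libraries were wild type in 10% serum (libraries 1 to 3), ΔLEO1 in 10% serum (4 to 6), wild type in 0.1% serum (7 to 9) and ΔLEO1 in 0.1% serum (10 to 12). All ΔLEO1 libraries came from 1 clone, so the genotype and the clone cannot be told apart. Neither the labels nor the methods say whether the 3 libraries of a group came from separate cultures, so the p-values measure only the spread between these libraries, which may be technical.

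KLF proteins share a C-terminal block of zinc fingers that binds GC-rich and CACCC-containing DNA, and they differ in the parts that recruit coactivators or corepressors. In fibroblasts and other cells the genes are known as fast responders to serum, shear flow, TGF-beta and glucocorticoids, and several of them restrain or promote cell division. KLF2 and KLF4 are mostly tied to quiescence and to the ERK5 pathway, KLF5 and KLF6 to growth and tissue repair, KLF10 and KLF11 to TGF-beta, KLF9 and KLF15 to glucocorticoids, and KLF3 is a corepressor-binding repressor.

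Gene counts ran from 26240632 to 45315560 per library, and counts of the added ERCC transcripts made up 0.625% to 3.24% of a library. In the ΔLEO1 libraries in 0.1% serum the ERCC share was 1.88%, 3.24% and 1.09%, the widest ratio within a group. Values are given on both of the scales this allows. An ERCC-scaled count is the count per 1000000 effective ERCC counts and follows RNA per unit of spike-in. A TMM-scaled CPM (counts per 1000000) is scaled by trimmed means of the genes themselves and follows a gene relative to the other genes. The median log2 fold change of all 13236 tested genes from 10% to 0.1% serum was -0.97 in wild-type and -1.05 in ΔLEO1 cells on the ERCC scale, against 0.0044 and 0.012 on the TMM scale. In bulk RNA, fewer cells of a type and less RNA per cell cannot be told apart, and the methods do not state whether the ERCC mix was added per cell or per amount of RNA. LEO1 itself ran from 19.9 to 29.3 TMM-scaled CPM in wild-type libraries and from 0.675 to 1.42 in ΔLEO1 libraries. All 10 fibroblast markers examined passed the filter on low counts, with a summed level of 52112 to 74892 TMM-scaled CPM per library. Of 4 markers each, 1 epithelial, no endothelial and 2 leukocyte genes passed, with summed levels of at most 76.8, 1.01 and 8.28 CPM. PTPRC, a leukocyte surface phosphatase, was called higher in the clone at both serum levels, from at most 0.613 CPM in any wild-type library to between 1.42 and 7.25 CPM. KRT8, an epithelial keratin gene, was called lower in the clone on the TMM scale, with log2 fold changes of -1.23 in 10% and -1.10 in 0.1% serum, and was not called on the ERCC scale. Of the fibroblast markers 3 were lower and 1 higher in the clone in 10% serum and 4 were lower in 0.1% serum on the TMM scale. Of all genes 21.8% were lower and 17.7% higher in 10% serum, and 17.6% were lower in 0.1% serum. On the ERCC scale none of the 10 fibroblast markers was called between the genotypes. The part of all these marker genes in the KLF values was not tested.

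The highest-numbered library of each group (3, 6, 9 and 12) stood apart from the others for several KLF genes, so results are given with and without these 4 libraries where it matters. In library 12 the 3 members KLF10, KLF4 and KLF11 were 3.15, 2.78 and 2.46 times the mean of libraries 10 and 11 in TMM-scaled CPM, and in library 9 the same 3 genes were 2.65, 2.66 and 1.70 times the mean of libraries 7 and 8. KLF6 went the other way, at 0.655 times in library 9 and 0.650 times in library 12. What sets these libraries apart was not tested.

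**Figure D1:**
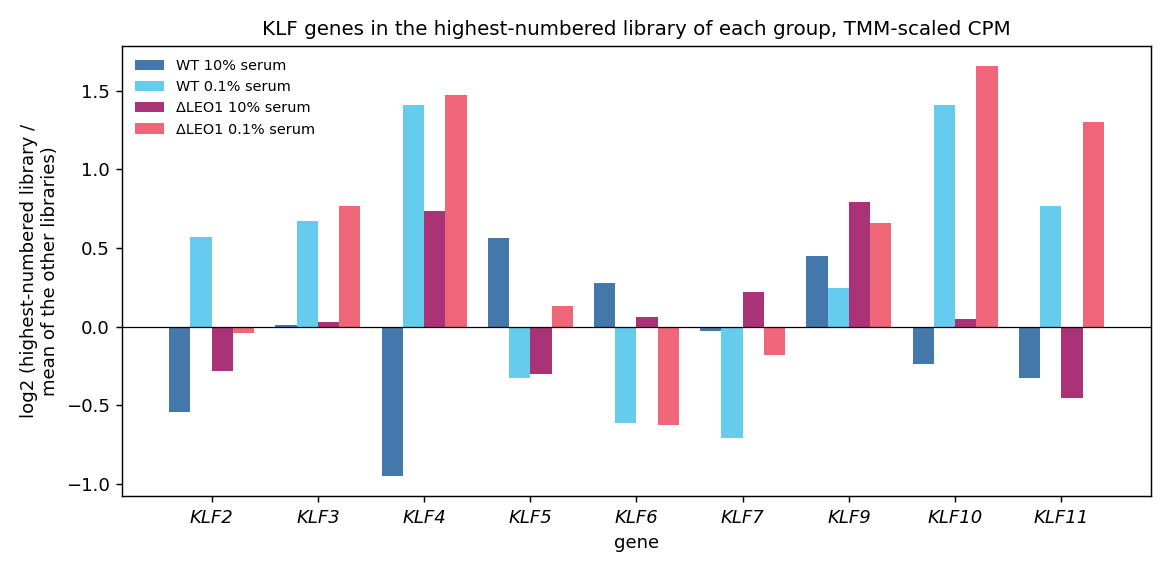
For the 9 KLF genes that passed the filter, bars give the log2 ratio (y axis) of the highest-numbered library to the mean of the other libraries of its group, in TMM-scaled CPM, with 1 colour per group. In 0.1% serum KLF10 stood at 1.41 in wild-type and 1.65 in ΔLEO1 cells and KLF6 at -0.61 and -0.62, while in 10% serum KLF10 and KLF3 were within 0.24 of 0.

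The stretches of 250 bases that lead up to the transcription start are shown for KLF2, KLF5 and KLF9, the members lower in 0.1% serum on both scales in wild-type cells, and for KLF4, the member lower in the clone in 10% serum on both scales. They are RefSeq sequences on GRCh38.p14, written from 5′ to 3′ on the strand of the gene. RefSeq promoters were matched for 8 of the 10 members, not for KLF3 and KLF10. Capitals mark the motif CACCC, the GC box GGGCGG and the box known as CCAAT on either strand, whose matches may overlap. For KLF5 only the window of the more upstream of its starts is printed.
KLF2 promoter, chr19:16324576-16324825, plus strand: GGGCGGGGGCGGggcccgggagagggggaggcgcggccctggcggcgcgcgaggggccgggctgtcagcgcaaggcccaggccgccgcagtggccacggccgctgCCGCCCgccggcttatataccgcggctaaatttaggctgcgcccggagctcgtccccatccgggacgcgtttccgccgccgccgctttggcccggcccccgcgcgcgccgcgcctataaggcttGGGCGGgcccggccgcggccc
KLF5 promoter, chr13:73054726-73054975, plus strand: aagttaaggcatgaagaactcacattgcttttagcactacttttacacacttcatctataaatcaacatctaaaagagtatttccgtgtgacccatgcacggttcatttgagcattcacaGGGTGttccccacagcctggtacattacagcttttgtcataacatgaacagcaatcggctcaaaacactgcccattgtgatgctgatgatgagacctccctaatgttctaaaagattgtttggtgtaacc
KLF9 promoter, chr9:70414658-70414907, minus strand: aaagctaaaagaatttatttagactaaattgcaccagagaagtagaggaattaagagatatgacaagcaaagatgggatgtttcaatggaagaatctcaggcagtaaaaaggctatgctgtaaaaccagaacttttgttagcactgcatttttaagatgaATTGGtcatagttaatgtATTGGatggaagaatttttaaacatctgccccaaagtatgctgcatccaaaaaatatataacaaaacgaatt
KLF4 promoter, chr9:107489770-107490019, minus strand: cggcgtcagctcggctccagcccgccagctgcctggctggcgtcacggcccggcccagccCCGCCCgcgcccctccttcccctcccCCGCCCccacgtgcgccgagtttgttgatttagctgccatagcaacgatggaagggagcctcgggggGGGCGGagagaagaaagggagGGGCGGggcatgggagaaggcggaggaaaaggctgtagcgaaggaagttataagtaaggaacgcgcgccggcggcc

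The KLF2 and KLF4 windows each held 4 GGGCGG boxes, the element bound by SP and KLF proteins, and no CACCC. The printed KLF5 window held 1 CACCC and no GGGCGG, and the window of the downstream KLF5 start held 2 of each and 2 CCAAT boxes. KLF9 had 2 CCAAT boxes and neither of the others. GC content was 80% for KLF2, 69.2% for KLF4 and 32.4% for KLF9, beside a median of 58% over all promoters. For KLF5 it was 40.8% in the printed window and 70.8% in that of the downstream start. Of 35116 windows of the same length in the RefSeq table, 54.7% held CACCC, 42.6% GGGCGG and 32% CCAAT, so these matches are common and are given as a description only. The KLF4 window lies inside the GENCODE span of KLF4 but in none of its annotated exons, and 9 bases of the KLF2 window fall in its annotated first exon.

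In the GENCODE annotation of GRCh38 the genes that carry the main results are KLF2 (ENSG00000127528) at chr19:16324817-16327874 on the plus strand, KLF4 (ENSG00000136826) at chr9:107484852-107490482 on the minus strand, KLF5 (ENSG00000102554) at chr13:73054976-73077542 on the plus strand and KLF9 (ENSG00000119138) at chr9:70384597-70414624 on the minus strand. KLF10 (ENSG00000155090) lies at chr8:102648779-102655902 on the minus strand, KLF11 (ENSG00000172059) at chr2:10042849-10054836 on the plus strand and KLF15 (ENSG00000163884) at chr3:126342635-126357442 on the minus strand. KLF3 (ENSG00000109787) at chr4:38664196-38701042, KLF6 (ENSG00000067082) at chr10:3775996-3785281 and KLF7 (ENSG00000118263) at chr2:207074137-207167267 are on the plus, minus and minus strand. Counts were of reads in exons, and the longest transcripts have 2 (KLF9) to 6 exons (KLF3). Transcripts of 7 members shared no 58-base stretch, the read length, with another gene, while KLF11 shared 7.92%, KLF3 3.48%, part of it with its antisense gene KLF3-AS1, and KLF7 0.0318%.

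Of the 10 genes, 9 exceeded 1 CPM in at least 3 libraries, the limit for testing, and KLF15 did not. Per kilobase of exon, the order of levels in wild-type cells in 10% serum was KLF6, KLF5, KLF2, KLF9, KLF10, KLF4, KLF3, KLF7, KLF11 and KLF15, from a mean of 18.7 to 0.0808 TMM-scaled CPM per kilobase. The ranges of the first 4 of them overlapped from one to the next, and so did those of KLF10, KLF4 and KLF3. In 0.1% serum KLF10 led in both genotypes, at a mean of 43.9 CPM per kilobase in wild-type and 50.3 in ΔLEO1 cells. Its range still overlapped that of KLF4, the next in wild-type cells, and did not overlap that of KLF6, the next in ΔLEO1 cells. From 10% to 0.1% serum KLF5 went from rank 2 to rank 9 in wild-type and from rank 5 to rank 6 in ΔLEO1 cells. KLF4 stood at ranks 6 and 2 in wild-type cells but at rank 8 in ΔLEO1 cells at either serum level. KLF11 was the lowest of the 9 in 3 of the 4 groups.

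**Figure D2:**
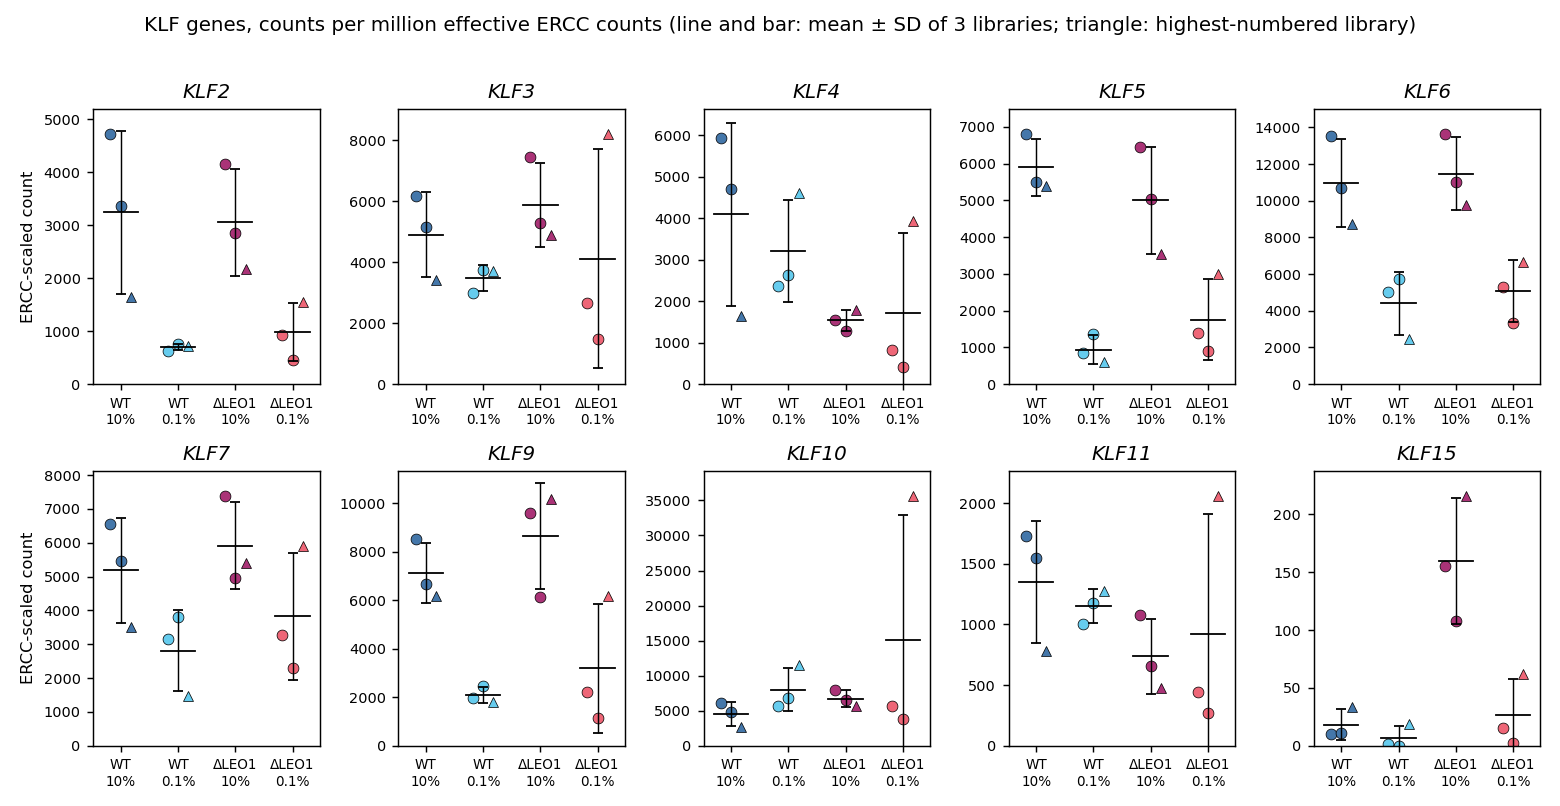
ERCC-scaled counts (y axis, count per 1000000 effective ERCC counts) of the 10 KLF genes in each library of the 4 groups. Points are libraries, triangles the highest-numbered library of a group, and lines with bars the mean ± SD of 3 libraries, drawn from 0 upwards. KLF2 and KLF5 lay lower in 0.1% than in 10% serum in every library of both genotypes, and library 12 stood far above libraries 10 and 11 for KLF10.

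**Figure D3:**
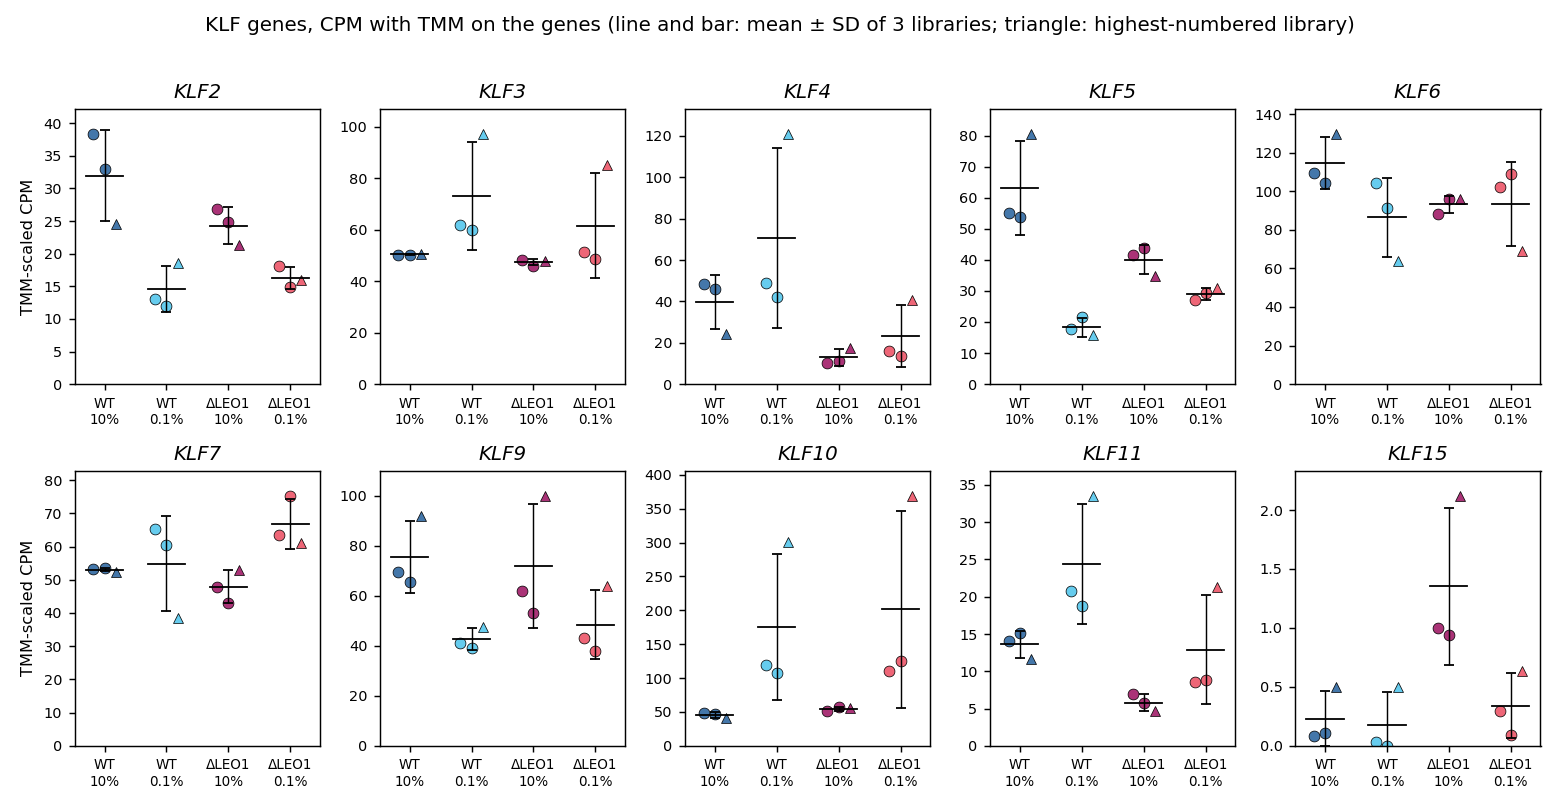
TMM-scaled CPM (y axis) of the same genes and libraries, with the same marks. Relative to the other genes KLF10 was higher in every library in 0.1% serum than in any library in 10% serum, and KLF5 was lower.

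The first comparison asks which KLF genes follow serum withdrawal in wild-type fibroblasts. On the ERCC scale 4 of the 9 tested members, KLF5, KLF2, KLF9 and KLF6, fell and none rose (edgeR likelihood ratio test, Benjamini-Hochberg adjusted p under 0.05), and at an unadjusted p under 0.05 the count was 4 lower and 0 higher. DESeq2 called 4 lower and 0 higher. Over all tested genes 36.1% fell and 0.944% rose. The median log2 fold change of the members was -0.89, beside -0.97 for all genes. Relative to the other genes, on the TMM scale, KLF5, KLF2 and KLF9 fell while KLF10 and KLF11 rose, against a background of 16.6% lower and 16% higher.

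KLF5, a growth-associated activator of cell cycle genes, fell most. Its ERCC-scaled counts were 6804, 5494 and 5404 in 10% serum and 851, 1361 and 599 in 0.1% serum. All 3 low-serum libraries lay far under all 3 libraries in 10% serum. KLF5 had a log2 fold change of -2.66 (SE 0.46, edgeR adjusted p = 2.47e-06), and on the TMM scale -1.79 (SE 0.18, edgeR adjusted p = 3.08e-19).

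KLF2, which restrains the growth of many cell types, had ERCC-scaled counts of 4723, 3373 and 1644 in 10% serum and 631, 754 and 711 in 0.1% serum. Libraries 7 to 9 were close together and under the lowest library in 10% serum, which was library 3. This was a log2 fold change of -2.21 (SE 0.46, edgeR adjusted p = 0.000145), and on the TMM scale -1.13 (SE 0.21, edgeR adjusted p = 9.15e-07).

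KLF9, a glucocorticoid-induced transcriptional repressor, had ERCC-scaled counts of 8543, 6682 and 6171 in 10% serum and 1989, 2467 and 1819 in 0.1% serum, again with no overlap. This was a log2 fold change of -1.77 (SE 0.45, edgeR adjusted p = 0.00204), and on the TMM scale -0.82 (SE 0.25, edgeR adjusted p = 0.00618). KLF5, KLF2 and KLF9 were called lower on the ERCC scale whichever of the 12 libraries was left out.

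KLF6, an injury-induced activator, measured 13514, 10680.1 and 8706 ERCC-scaled counts in 10% serum and 5036, 5731 and 2446 in 0.1% serum, with no overlap between the groups. Its log2 fold change was -1.32 (SE 0.45, edgeR adjusted p = 0.0204). Its TMM-scale value was -0.40 (SE 0.20, edgeR adjusted p = 0.112) and was not called. The call on the ERCC scale was also lost without library 1 (-1.14), 2 (-1.33), 7 (-1.42) or 9 (-1.03), with adjusted p from 0.0648 to 0.161 in edgeR. In those fits 8.67% to 13% of all genes were called lower, against 36.1% with all libraries.

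KLF10, the TGF-beta-inducible early gene, had TMM-scaled CPM of 49.1, 47.2 and 40.8 in 10% serum and 119, 108 and 300.2 in 0.1% serum. Each low-serum library exceeded every library in 10% serum, and library 9 was the highest by far. The log2 fold change on the TMM scale was 1.94 (SE 0.45, edgeR adjusted p = 0.000253), and 1.24 without the highest-numbered libraries, still called. In ERCC-scaled counts the values were 6047, 4824 and 2741 against 5742, 6747 and 11454. These ranges overlapped, at a log2 fold change of 0.82 (SE 0.45, edgeR adjusted p = 0.115), which was called without library 11 (0.82, adjusted p = 0.0481) or 12 (0.82, adjusted p = 0.0370) and stood at 0.46 (edgeR adjusted p = 0.455) without library 9.

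KLF11, a close relative of KLF10 that TGF-beta also induces, measured 14.0, 15.1 and 11.6 TMM-scaled CPM in 10% serum and 20.7, 18.7 and 33.5 in 0.1% serum. The groups did not overlap, and library 9 was again the highest. The log2 fold change on the TMM scale was 0.84 (SE 0.34, edgeR adjusted p = 0.0474), and on the ERCC scale -0.23 (SE 0.48, edgeR adjusted p = 0.662), where it was not called. The TMM-scale value was close to the threshold and was smaller without the highest-numbered libraries, though still called. On that scale edgeR's quasi-likelihood test called 1 member higher in wild-type cells, where the likelihood ratio test called 2. The shared stretches of KLF11 were those of its antisense gene ENSG00000271787, with which it has 416 exon bases in common. The libraries were made with a stranded kit, and the strand setting of the counting is not given in the sources used here.

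The other 3 tested members were not called on either scale in wild-type cells. KLF7, a factor of neurons and adipocytes, had a log2 fold change of -0.89 (SE 0.45, edgeR adjusted p = 0.0944) on the ERCC scale and 0.046 on the TMM scale. It was called lower on the ERCC scale without library 3 (-1.10), 11 (-0.89) or 12 (-0.89), with adjusted p from 0.0245 to 0.0451 in edgeR. In these fits 57.1%, 59% and 65% of all genes were called lower, at medians of -1.18, -0.97 and -0.97. For the repressor KLF3 the ERCC-scale and TMM-scale values with all libraries were -0.49 and 0.54. For KLF4, one of the factors used to reprogram fibroblasts to pluripotency, they were -0.35 and 0.84. For both genes the sign depended on the scale. In KLF4 the 3 libraries in 0.1% serum ran from 42.0 to 121 TMM-scaled CPM, with library 9 at the top. Without the highest-numbered library of every group 6 members were called lower on the ERCC scale, KLF4 and KLF7 in addition, where 71.8% of all genes were.

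The same comparison within the ΔLEO1 clone gave 4 members lower and 1 higher on the ERCC scale, with 47.2% of all genes lower and 0.975% higher. The lower members were again KLF2, KLF5, KLF9 and KLF6, and the higher one was KLF10. The median over the 9 members was -0.63, beside -1.05 for all genes. Relative to the other genes KLF2 and KLF5 fell while KLF10, KLF11 and KLF7 rose, where 12.9% of all genes fell and 16.5% rose. These ERCC-scale calls rested on single libraries more than in wild-type cells. Without library 4 or library 10 edgeR called none of the 9 members, with 5 and 5 at an unadjusted p under 0.05. Calls were lost over all genes as well, with 6.03% and 4.57% called lower in these fits. Without library 5 or 11 the shares were 20.5% and 8.22%, against 47.2% with all libraries.

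KLF2 had ERCC-scaled counts of 4159, 2857 and 2167 in 10% serum and 931, 451 and 1544 in 0.1% serum, without overlap. This was a log2 fold change of -1.65 (SE 0.46, edgeR adjusted p = 0.00666), and on the TMM scale -0.58 (SE 0.21, edgeR adjusted p = 0.0213). Without library 4 or 10 the ERCC-scale values were -1.37 and -1.62, with edgeR adjusted p = 0.0865 and 0.0660.

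KLF5 measured 6447, 5038 and 3536 ERCC-scaled counts in 10% serum and 1399, 891 and 2984 in 0.1% serum. The highest low-serum library, 12, lay just under the lowest in 10% serum. This was a log2 fold change of -1.51 (SE 0.46, edgeR adjusted p = 0.0107), and on the TMM scale -0.46 (SE 0.18, edgeR adjusted p = 0.0417). Without library 4, 10 or 11 the ERCC-scale values were -1.29, -1.37 and -1.19, with edgeR adjusted p from 0.0590 to 0.0988.

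KLF9 had 9603, 6136 and 10182 ERCC-scaled counts in 10% serum and 2231, 1155 and 6180.4 in 0.1% serum, where library 12 overlapped the range in 10% serum. KLF9 changed with a log2 fold change of -1.44 (SE 0.45, edgeR adjusted p = 0.0133), and the change on the TMM scale was -0.57 (SE 0.25, edgeR adjusted p = 0.0757), which was not called. Without library 4, 10 or 11 the ERCC-scale values were -1.36, -1.24 and -1.04, with edgeR adjusted p from 0.0812 to 0.115, and without library 12 the value was -2.35 (edgeR adjusted p = 1.29e-06). KLF6 fell on the ERCC scale from 13632, 11035 and 9772 to 5287, 3323 and 6648, without overlap, with a log2 fold change of -1.17 (SE 0.45, edgeR adjusted p = 0.0307), but stood at 0.0034 on the TMM scale. That call was lost without library 4 (-1.03), 5 (-1.20), 10 (-1.20) or 11 (-0.94), with edgeR adjusted p from 0.0644 to 0.147.

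KLF10 was the called member whose direction hung on 1 library. Its ERCC-scaled counts were 7980.2, 6532 and 5701 in 10% serum and 5679, 3791 and 35659 in 0.1% serum, so that libraries 10 and 11 lay under the range in 10% serum and library 12 far above it. The log2 fold change was 1.16 (SE 0.45, edgeR adjusted p = 0.0322). It turned to -0.51 (adjusted p = 0.219) without library 12, and the call was lost without library 4 (1.30), 5 (1.14), 6 (1.05) or 10 (1.55), with edgeR adjusted p from 0.0520 to 0.107. Relative to the other genes the groups separated, at 51.5, 56.7 and 56.0 TMM-scaled CPM in 10% serum and 110.1, 125 and 369 in 0.1% serum. On that scale the log2 fold change was 1.88 (SE 0.45, edgeR adjusted p = 0.000473), and 1.12 without the highest-numbered libraries, still called.

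KLF11 measured 6.95, 5.74 and 4.64 TMM-scaled CPM in 10% serum and 8.57, 8.77 and 21.3 in 0.1% serum, without overlap. It rose on the TMM scale, with a log2 fold change of 1.16 (SE 0.35, edgeR adjusted p = 0.00560), and was 0.32 on the ERCC scale, which turned to -1.05 (edgeR adjusted p = 0.0194) without library 12. KLF7 measured 47.7, 43.1 and 53.0 TMM-scaled CPM in 10% serum and 63.5, 75.3 and 61.2 in 0.1% serum. Here too every low-serum library was the higher, and the change was 0.48 (SE 0.18, edgeR adjusted p = 0.0323), with -0.63 on the ERCC scale. KLF3 and KLF4 were not called on either scale, at -0.52 and 0.15 on the ERCC scale and 0.38 and 0.85 on the TMM scale. Without library 12, the 4 genes KLF3 (-1.51), KLF4 (-1.33), KLF7 (-1.09) and KLF11 were called lower on the ERCC scale too. In that fit 88.3% of all genes were called lower. Their median log2 fold change was -1.60, a larger fall than that of any of these 4 genes. Without the highest-numbered library of every group 8 members were called lower, all but KLF10, where 92.5% of all genes were.

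**Figure D4:**
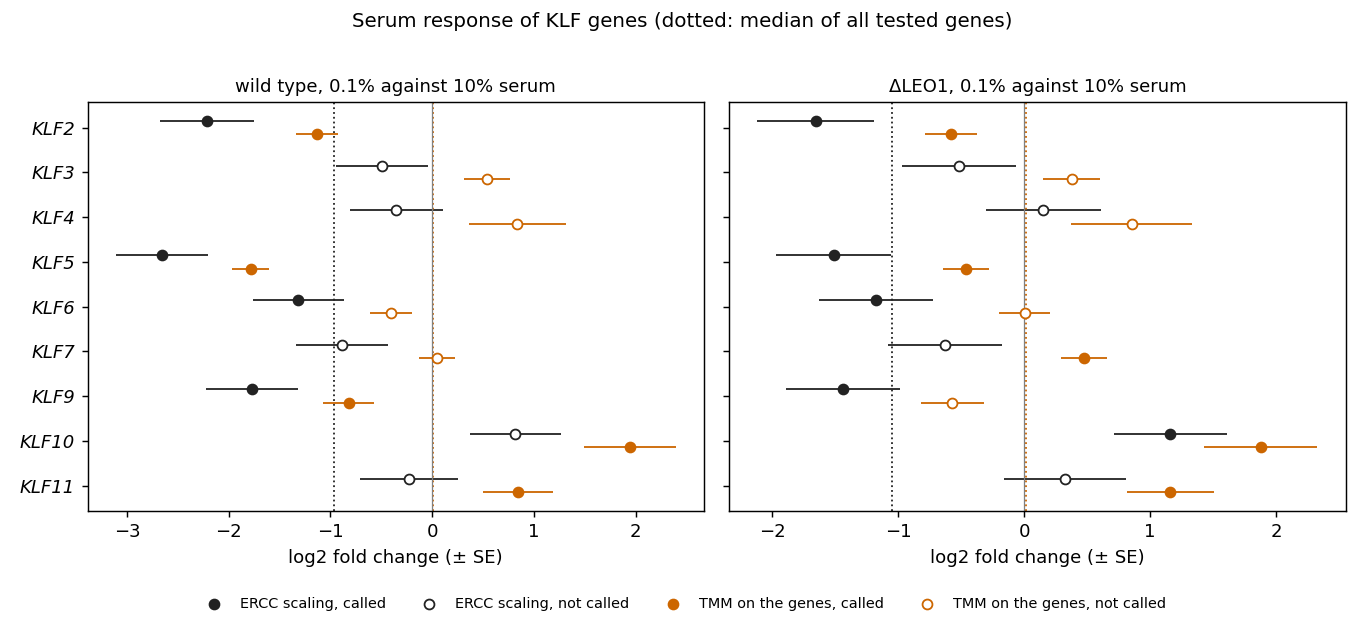
Log2 fold changes from 10% to 0.1% serum (x axis, points with bars of ± SE) of the 9 tested KLF genes in wild-type (left) and ΔLEO1 cells (right), on the ERCC scale (black) and the TMM scale (orange), with filled points for called genes. Dotted lines mark the median of all tested genes. KLF2, KLF5 and KLF9 lay to the left of that median on both scales and in both genotypes, and KLF10 lay to its right.

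The effect of the genotype was compared at each serum level. In 10% serum KLF4 was the member called on the ERCC scale, lower in the clone, where 4.64% of all genes were lower. On the TMM scale KLF4, KLF11 and KLF5 were lower, where 21.8% of all genes were lower. The median of the 9 members was 0.066 on the ERCC scale beside 0.35 for all genes, and -0.30 on the TMM scale.

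KLF4 had TMM-scaled CPM of 48.2, 46.1 and 24.5 in wild-type and 10.0, 11.1 and 17.6 in ΔLEO1 cells in 10% serum. Every ΔLEO1 library was lower, although library 3, the lowest of the wild type, came near library 6. The change was -1.62 (SE 0.48, edgeR adjusted p = 0.00381), and -2.16 without the highest-numbered libraries, still called. The ERCC-scaled counts were 5936, 4711 and 1642 against 1549.6, 1281 and 1792 and overlapped, at -1.41 (SE 0.46, edgeR adjusted p = 0.0317). That call was not kept by edgeR's quasi-likelihood test (adjusted p = 0.0516) or by DESeq2 (adjusted p = 0.325). Leaving out library 1, 2, 4, 5, 6 or 7 ended it as well, at log2 fold changes of -1.04, -1.30, -1.41, -1.29, -1.53 and -1.41 and edgeR adjusted p from 0.0552 to 0.272.

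KLF11 measured 14.0, 15.1 and 11.6 TMM-scaled CPM in wild-type and 6.95, 5.74 and 4.64 in ΔLEO1 cells in 10% serum, without overlap. The change was -1.24 (SE 0.35, edgeR adjusted p = 0.00188), and -0.88 on the ERCC scale, where it was not called. KLF5 was also lower in TMM-scaled CPM, at 55.2, 53.7 and 80.5 against 41.6, 43.7 and 34.7. Its change was -0.66 (SE 0.18, edgeR adjusted p = 0.00136), but -0.24 on the ERCC scale. The other 6 members, KLF2, KLF3, KLF6, KLF7, KLF9 and KLF10, ran from -0.08 to 0.57 on the ERCC scale and from -0.39 to 0.26 on the TMM scale, and none was called.

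In 0.1% serum none of the members was called on the ERCC scale by edgeR, and 2 had an unadjusted p under 0.05, while DESeq2 called none either. Of all genes 7.43% were called in either direction. On the TMM scale KLF4 and KLF11 were lower and KLF5 was higher, where 17.6% of all genes were lower and 15.4% higher. The median of the 9 members was 0.45 on the ERCC scale, beside 0.27 for all genes, and 0.16 on the TMM scale.

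KLF4 measured 49.0, 42.0 and 121 TMM-scaled CPM in wild-type and 15.8, 13.4 and 40.6 in ΔLEO1 cells after 10 days in 0.1% serum. The highest-numbered libraries, 9 and 12, led both groups, and library 12 came just under the lowest wild-type library. The change was -1.60 (SE 0.48, edgeR adjusted p = 0.00513), and -1.64 without the highest-numbered libraries, still called. On the ERCC scale it was -0.90 (SE 0.46, edgeR adjusted p = 0.351) with all libraries, and -2.39 without library 12, which was called (edgeR adjusted p = 2.33e-06).

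KLF11 had 20.7, 18.7 and 33.5 TMM-scaled CPM in wild-type and 8.57, 8.77 and 21.3 in ΔLEO1 cells in 0.1% serum. Libraries 10 and 11 lay under the wild type and library 12 inside its range. Its change was -0.92 (SE 0.34, edgeR adjusted p = 0.0283), and -0.32 (SE 0.48, edgeR adjusted p = 0.848) on the ERCC scale. That ERCC-scale value was -1.70 (edgeR adjusted p = 0.00242) without library 12, and 0.010 and 0.12 without library 10 or 11.

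KLF5 moved the other way, with 17.6, 21.7 and 15.7 TMM-scaled CPM in wild-type and 27.1, 29.3 and 30.9 in ΔLEO1 cells in 0.1% serum. Each ΔLEO1 library was above each wild-type library. The change was 0.67 (SE 0.18, edgeR adjusted p = 0.00173), and 0.91 (SE 0.46, edgeR adjusted p = 0.344) on the ERCC scale, where it was called without library 11 (1.23, edgeR adjusted p = 0.0302) and stood at 0.29 (edgeR adjusted p = 0.806) without library 12. KLF10 was at 0.91 (SE 0.45, edgeR adjusted p = 0.323) on the ERCC scale and called without library 11 (1.37, edgeR adjusted p = 0.00950), but stood at -0.75 without library 12 and 0.20 on the TMM scale.

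**Figure D5:**
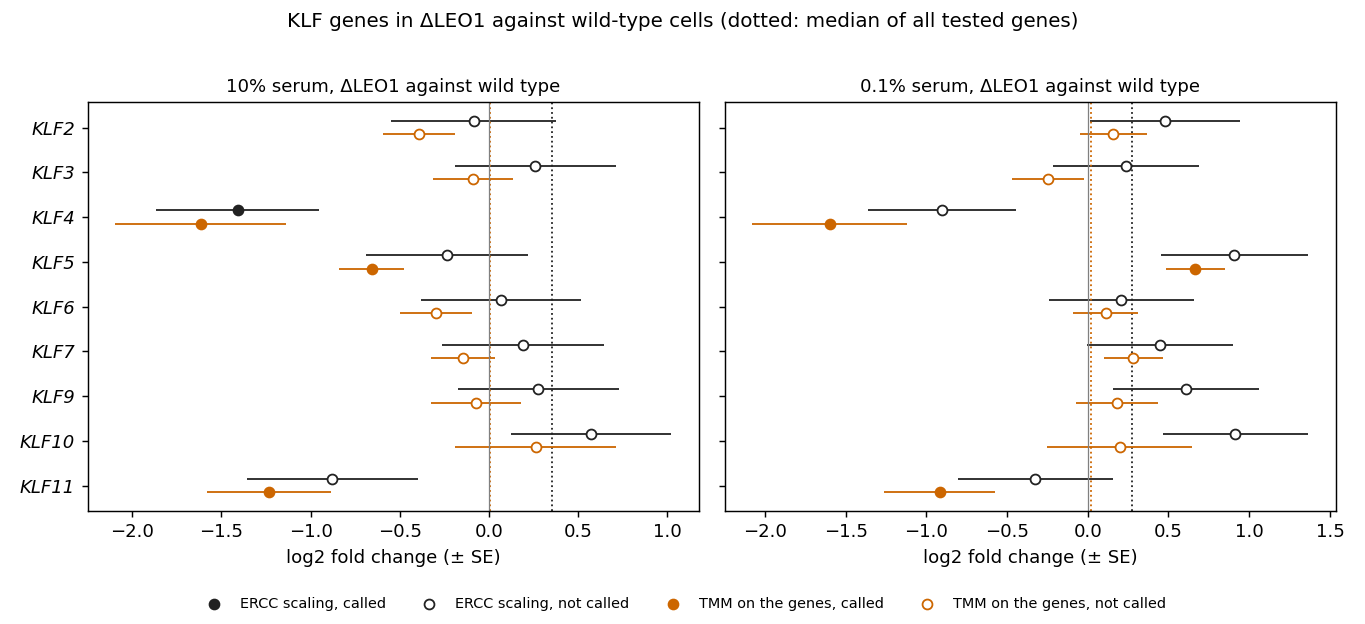
Log2 fold changes of ΔLEO1 against wild-type cells (x axis, points with bars of ± SE) of the 9 tested KLF genes in 10% (left) and 0.1% serum (right), on the ERCC scale (black) and the TMM scale (orange), with filled points for called genes and dotted lines at the median of all tested genes. KLF4 and KLF11 lay to the left of the median on both scales at both serum levels, while KLF5 lay to its left in 10% and to its right in 0.1% serum.

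Whether the serum response differed with the genotype was tested as an interaction, the response of ΔLEO1 less that of wild-type cells. On the ERCC scale none of the 9 members was called by edgeR or DESeq2, 0 had an unadjusted p under 0.05, and 0.219% of all genes were called. On the TMM scale KLF5 was the 1 member called, where 3.06% of all genes were called higher. In TMM-scaled CPM it went from 55.2, 53.7 and 80.5 to 17.6, 21.7 and 15.7 in wild-type cells and from 41.6, 43.7 and 34.7 to 27.1, 29.3 and 30.9 in ΔLEO1 cells. It thus started higher and ended lower in wild-type cells, with no overlap between the genotypes at either serum level. The interaction was 1.33 (SE 0.26, edgeR adjusted p = 4.85e-05), and 0.88 without the highest-numbered libraries, still called. In that smaller fit 5 of the 9 members and 17.3% of all genes were called higher. With all libraries the quasi-likelihood test on the TMM scale gave KLF5 an adjusted p = 0.0172. The ERCC-scale interaction of KLF5 was 1.14 (SE 0.64, edgeR adjusted p = 1.00), and 0.53 (edgeR adjusted p = 0.549) without library 12. For the other 8 members it ran from -0.02 to 0.56 on the ERCC scale and from -0.16 to 0.55 on the TMM scale.

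KLF15, a glucocorticoid target that acts in amino acid and lipid metabolism, had few counts and was fitted without the filter. Its counts were 3, 4 and 19 in wild-type and 38, 42 and 91 in ΔLEO1 cells in 10% serum, and 1, 0 and 17 in wild-type and 10, 3 and 24 in ΔLEO1 cells in 0.1% serum. The highest-numbered library had the most counts in every group. In 10% serum the groups did not overlap, and KLF15 was higher in the clone with a log2 fold change of 3.03 (SE 0.62, edgeR adjusted p = 8.25e-05) on the ERCC scale. Within the clone it fell in 0.1% serum with a log2 fold change of -2.72 (SE 0.58, edgeR adjusted p = 0.000681). In wild-type cells the serum change was -1.29 (SE 0.72, edgeR adjusted p = 0.189), and in 0.1% serum the difference between the genotypes was 1.61 (SE 0.68, edgeR adjusted p = 0.205), with overlapping groups in both. The interaction was -1.43 (SE 0.92, edgeR adjusted p = 1.00).

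The other genes of the family were read from lists of related genes. Of 8 other KLF genes 4 passed the filter (KLF8, KLF12, KLF13 and KLF16). KLF12, a repressor of AP-2 alpha, and KLF16 fell on the ERCC scale from 10% to 0.1% serum, with log2 fold changes of -1.58 (adjusted p = 0.00852) and -1.43 (adjusted p = 0.0138) in wild-type and with log2 fold changes of -1.16 (adjusted p = 0.0383) and -1.44 (adjusted p = 0.0142) in ΔLEO1 cells (edgeR). Among all genes 36.1% fell in wild-type and 47.2% in ΔLEO1 cells. The median of the 4 was -1.15 in wild-type cells, beside -0.97 for all genes, and -0.79 in ΔLEO1 cells, beside -1.05. In TMM-scaled CPM KLF12 alone of them was called lower in wild-type cells, and KLF13 and KLF8 were called higher in ΔLEO1 cells. On that scale 16.6% of all genes fell in wild-type cells and 16.5% rose in ΔLEO1 cells. KLF13 was lower in the clone in 10% serum on the TMM scale only, where 21.8% of all genes were lower. KLF8 was lower in the clone in 10% serum on both scales, with log2 fold changes of -2.52 (adjusted p = 8.23e-05) and -2.81 (adjusted p = 6.94e-16) (edgeR). Of the 9 SP genes, which encode relatives of the KLF proteins with the same zinc fingers, 4 passed the filter (SP1, SP2, SP3 and SP4). In edgeR none was called on the ERCC scale, where SP1 in wild-type and SP2 and SP4 in ΔLEO1 cells had an unadjusted p under 0.05 in the serum comparison. On the TMM scale SP3 rose in 0.1% serum with log2 fold changes of 0.40 in wild-type and 0.34 in ΔLEO1 cells, while SP1 was lower in the clone in 10% serum with a log2 fold change of -0.38. The shares of all genes were 16% and 16.5% higher in these serum comparisons and 21.8% lower in that genotype comparison.

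Of the 8 genes of the MEK5-ERK5-MEF2 route, which induces KLF2 and KLF4, 7 were tested. In the serum comparison on the ERCC scale, the kinase gene MAP3K3 fell in wild-type cells with a log2 fold change of -1.54 (adjusted p = 0.00792) (edgeR). It was the 1 call among them in either genotype, where 36.1% and 47.2% of all genes fell in wild-type and ΔLEO1 cells. Relative to the other genes MAPK7, which encodes ERK5, rose in both genotypes, with log2 fold changes of 0.34 and 0.42. The transcription factor gene MEF2C also rose and MAP3K3 fell on that scale in wild-type cells, and MAP3K2 rose in ΔLEO1 cells. On that scale 16% of all genes rose and 16.6% fell in wild-type cells, and 16.5% rose in ΔLEO1 cells. MEF2C was lower in the clone on both scales, with a log2 fold change of -2.39 (adjusted p = 0.000473) in 10% and -2.75 (adjusted p = 2.91e-05) in 0.1% serum on the ERCC scale (edgeR). On the TMM scale MAP2K5, MAP3K3 and MEF2A were lower in the clone as well in 10% serum, and MEF2A in 0.1% serum. There 21.8% and 17.6% of all genes were lower. The median over the 7 genes in 10% serum was -0.048 on the ERCC scale, beside 0.35 for all genes.

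Of 10 genes of the glucocorticoid receptor and its targets 9 were tested. In ERCC-scaled counts 5 fell in wild-type cells in 0.1% serum and 4 fell in ΔLEO1 cells, where 36.1% and 47.2% of all genes fell. Among them the target CEBPD fell with log2 fold changes of -1.88 (adjusted p = 0.00130) and -1.52 (adjusted p = 0.0114), DUSP1, a MAP kinase phosphatase, with log2 fold changes of -1.86 (adjusted p = 0.000987) and -2.18 (adjusted p = 0.000152), and FKBP5, a receptor co-chaperone, with log2 fold changes of -1.53 (adjusted p = 0.0190) and -1.44 (adjusted p = 0.0248) in wild-type and ΔLEO1 cells (edgeR). The median of the list was -1.24 in wild-type cells, beside -0.97 for all genes, and -0.83 in ΔLEO1 cells, beside -1.05. In TMM-scaled CPM 2 rose (ERRFI1 and the receptor gene NR3C1) and 2 fell (CEBPD and DUSP1) in wild-type cells. In ΔLEO1 cells 2 rose (NR3C1 and SGK1) and 1 fell (DUSP1). On that scale 16% of all genes rose and 16.6% fell in wild-type cells, and 16.5% rose and 12.9% fell in ΔLEO1 cells.

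All 10 genes of the TGF-beta early response, the pathway of KLF10 and KLF11, were tested. By ERCC-scaled counts ID3 and ID1, inhibitors of DNA binding by other factors, fell in 0.1% serum in both genotypes, with log2 fold changes of -2.96 (adjusted p = 8.71e-08) and -1.83 (adjusted p = 0.00143) in wild-type and -2.58 (adjusted p = 4.95e-06) and -1.64 (adjusted p = 0.00559) in ΔLEO1 cells (edgeR). By the same counts 36.1% of all genes fell in wild-type and 47.2% in ΔLEO1 cells. Relative to the other genes 6 rose and 1 fell in wild-type cells, and 7 rose and 1 fell in ΔLEO1 cells, where 16% and 16.5% of all genes rose and 16.6% and 12.9% fell. Those that rose in both were CCN2, SKI, SKIL, SMAD7, TGFBI and TGIF1, among them the pathway inhibitor SMAD7 with log2 fold changes of 1.20 and 1.57 and the matrix gene TGFBI with log2 fold changes of 2.07 and 2.26 on the TMM scale. The list's median on that scale was 1.06 in wild-type and 1.19 in ΔLEO1 cells, beside 0.0044 and 0.012 for all genes.

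The 15 immediate early genes, the class to which several KLF genes belong, were all tested. In ERCC-scaled counts EGR2 and EGR3 rose and DUSP1 and FOSL1 fell in wild-type cells in 0.1% serum, while EGR2, FOS and FOSB rose and 4 fell in ΔLEO1 cells. Among all genes 0.944% rose and 36.1% fell in wild-type cells, and 0.975% rose and 47.2% fell in ΔLEO1 cells. EGR2 changed most, with log2 fold changes of 4.65 (adjusted p = 3.66e-16) and 4.06 (adjusted p = 7.87e-13) (edgeR). In TMM-scaled CPM 10 rose in each genotype, while 1 fell in wild-type and 2 fell in ΔLEO1 cells, against the same shares of all genes as for the TGF-beta list. FOS and FOSB were lower in the clone at both serum levels on the ERCC scale, with log2 fold changes of -3.74 (adjusted p = 3.18e-12) and -2.76 (adjusted p = 4.04e-07) in 10% serum and -2.07 (adjusted p = 0.000191) and -1.42 (adjusted p = 0.0282) in 0.1% serum (edgeR). By TMM-scaled CPM 8 of the 15 were lower and 1 higher in the clone in 10% serum, and 10 were lower and 1 higher in 0.1% serum. Of all genes 21.8% were lower and 17.7% higher in 10% serum, and 17.6% lower and 15.4% higher in 0.1% serum.

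Of 15 partners and ubiquitin ligases of KLF proteins, all tested, HDAC3 fell in wild-type cells in 0.1% serum on the ERCC scale, and FBXW7, HDAC1, HDAC2 and HDAC3 fell in ΔLEO1 cells. In ΔLEO1 cells these changes ran from -1.31 to -1.13, near the median of all genes (-1.05). Among all genes 36.1% fell in wild-type and 47.2% in ΔLEO1 cells. On the TMM scale none of the 15 fell, while CTBP1 and FHL3 rose in both genotypes and KAT2B and SMURF2 in ΔLEO1 cells. There 16% of all genes rose and 16.6% fell in wild-type cells, and 16.5% rose and 12.9% fell in ΔLEO1 cells. Of 11 genes known as KLF targets 8 were tested. S1PR1, a receptor gene induced by KLF2, fell on both scales in both genotypes, with log2 fold changes of -2.17 (adjusted p = 0.000616) and -2.53 (adjusted p = 7.76e-05) on the ERCC scale (edgeR). CDKN1A, the p21 inhibitor gene induced by KLF4 and KLF6, was lower in the clone in 10% serum with log2 fold changes of -1.99 (adjusted p = 0.000404), and PDGFA was higher in the clone with a log2 fold change of 1.48 (adjusted p = 0.0190) in 10% and 1.52 (adjusted p = 0.0166) in 0.1% serum (edgeR).

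The genes whose log2 TMM-scaled CPM followed a member most closely over the 12 libraries were read as a description, since the libraries share groups and the 4 that stood apart. For KLF4 they were ITGB8 (Pearson r 0.99) and C11orf87 (0.98), for KLF5 ITGB1P1 (0.96) and AKAP6 (0.95), for KLF2 TPGS2 (0.96) and SLC25A35 (0.94), for KLF9 PHF20 (0.96) and SERINC3 (0.95), and for KLF10 PDZRN3 (0.95) and ZBTB34 (0.95). Among the members themselves KLF4 and KLF11 were the closest pair (0.91) and KLF3 and KLF6 the most opposed (-0.80).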

How the data were processed

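Poly(A) RNA with ERCC spike-in transcripts was sequenced from 12 libraries. The deposited counts are raw whole numbers of reads in exons per gene and per ERCC transcript, made by the authors with bcl2fastq 2.20.0.422, STAR and featureCounts 1.5.1 on an Ensembl GRCh38 genome joined with the ERCC sequences. The submitters' processing notes give STAR 2.7.10a, while the methods give an earlier release. The annotation release is not given in the sources used here.

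Here edgeR 4.0.16 with limma 3.58.1 in R 4.3.3 fitted all 12 libraries in one negative binomial model with 4 groups, and two-sided likelihood ratio tests were made, as the statistic in the study's tables points to. Of the 60671 genes, 42020 were given a symbol and 58453 a position in GENCODE 29, and the 13236 that exceeded 1 CPM in at least 3 libraries were tested. KLF15 was fitted without this filter. Promoters came from RefSeq on GRCh38.p14. The library size was the ERCC total times its TMM factor (the ERCC scale) or the gene total times its TMM factor (the TMM scale, planned as an alternative). Called means an adjusted p (Benjamini-Hochberg, over all tested genes) under 0.05. SE is that of the log2 fold change. As alternatives, other tests (edgeR's quasi-likelihood test, and DESeq2 1.42.0 scaled by the spike-ins), other scalings (TMM on the genes, DESeq2 size factors from the genes, raw ERCC totals) and other filters (none, filterByExpr) were run. So were fits of the compared groups alone, with each library left out, and with the highest-numbered library of every group left out. Both combinations with TMM were added after the data were seen. The fitting code was tested on simulated data.

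The 10 members, the lists and the rule by which genes are named (all members, and per list the called genes with the largest changes on the ERCC scale) were chosen with earlier results of these data known. Genes named on the TMM scale alone were chosen after their values were seen.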

Additional observations from a re-analysis of the deposited data

Results flagged for a closer look

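The serum response of KLF5 differed between the genotypes on the TMM scale. The log2 fold change from 10% to 0.1% serum was 1.33 higher in ΔLEO1 than in wild-type cells (SE 0.26, edgeR likelihood ratio test, adjusted p = 4.85e-05), from -1.79 in wild-type to -0.46 in ΔLEO1 cells. On the ERCC scale the same difference was 1.14 (SE 0.64, edgeR adjusted p = 1.00), and 0.53 (edgeR adjusted p = 0.549) without library 12. Without the highest-numbered library of every group it was 0.88 on the TMM scale and 0.15 on the ERCC scale.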

How the results depend on the processing

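The choice of scale and of libraries decided many signs. The log2 fold changes that turned in sign against the ERCC-scale fit of all 12 libraries were as follows, and the cause was not tested. Without the highest-numbered library of every group these were KLF4 (-1.21), KLF10 (-0.62) and KLF11 (-1.29) in the ΔLEO1 serum comparison, KLF2 (-0.0053), KLF3 (-0.71), KLF6 (-0.32), KLF7 (-0.32), KLF9 (-0.40) and KLF10 (-0.40) in the genotype comparison in 0.1% serum and KLF4 (-0.12), KLF6 (-0.35), KLF7 (-0.36), KLF9 (-0.44), KLF10 (-0.82) and KLF11 (-0.70) in the interaction. With TMM on the genes these were KLF3 (0.54), KLF4 (0.84), KLF7 (0.046) and KLF11 (0.84) in the wild-type serum comparison, KLF3 (0.38), KLF6 (0.0034) and KLF7 (0.48) in the ΔLEO1 serum comparison, KLF3 (-0.0898), KLF6 (-0.30), KLF7 (-0.15) and KLF9 (-0.074) in the genotype comparison in 10% serum, KLF3 (-0.25) in the genotype comparison in 0.1% serum and KLF10 (-0.064) in the interaction. With DESeq2 size factors on the genes these were KLF3 (0.54), KLF4 (0.84), KLF7 (0.0501) and KLF11 (0.84) in the wild-type serum comparison, KLF3 (0.38), KLF6 (0.0022) and KLF7 (0.47) in the ΔLEO1 serum comparison, KLF3 (-0.078), KLF6 (-0.29), KLF7 (-0.13) and KLF9 (-0.064) in the genotype comparison in 10% serum, KLF3 (-0.24) in the genotype comparison in 0.1% serum and KLF10 (-0.067) in the interaction. With TMM and without the highest-numbered library of every group these were KLF3 (0.28), KLF7 (0.24) and KLF11 (0.44) in the wild-type serum comparison, KLF3 (0.086), KLF6 (0.20) and KLF7 (0.61) in the ΔLEO1 serum comparison, KLF3 (-0.096), KLF6 (-0.22), KLF7 (-0.23) and KLF9 (-0.23) in the genotype comparison in 10% serum, KLF3 (-0.29) in the genotype comparison in 0.1% serum and KLF10 (-0.12) in the interaction. With TMM and the quasi-likelihood test these were KLF3 (0.54), KLF4 (0.84), KLF7 (0.046) and KLF11 (0.84) in the wild-type serum comparison, KLF3 (0.38), KLF6 (0.0033) and KLF7 (0.48) in the ΔLEO1 serum comparison, KLF3 (-0.0898), KLF6 (-0.30), KLF7 (-0.15) and KLF9 (-0.074) in the genotype comparison in 10% serum, KLF3 (-0.25) in the genotype comparison in 0.1% serum and KLF10 (-0.064) in the interaction. With each library left out in turn, signs turned for KLF4 (-0.73 to 0.0134) in the wild-type serum comparison, KLF4 (-1.33 to 0.62), KLF10 (-0.51 to 1.62) and KLF11 (-1.05 to 0.77) in the ΔLEO1 serum comparison, KLF2 (-0.40 to 0.29), KLF6 (-0.076 to 0.24) and KLF7 (-0.0235 to 0.40) in the genotype comparison in 10% serum, KLF2 (-0.0177 to 0.82), KLF3 (-0.76 to 0.64), KLF6 (-0.0824 to 0.44), KLF7 (-0.011 to 0.73), KLF9 (-0.31 to 1.01), KLF10 (-0.75 to 1.37) and KLF11 (-1.70 to 0.12) in the genotype comparison in 0.1% serum and KLF3 (-1.02 to 0.38), KLF4 (-0.98 to 0.97), KLF6 (-0.15 to 0.38), KLF7 (-0.20 to 0.53), KLF9 (-0.58 to 0.73), KLF10 (-1.32 to 0.80) and KLF11 (-0.82 to 0.99) in the interaction, as lowest to highest values. Counts of called genes that moved by more than 1.5 times in any direction are given in full for their comparison, with the shares of all tested genes in parentheses. With TMM on the genes the members called were 3 lower and 2 higher (16.6% and 16%) in the wild-type serum comparison, 2 lower and 3 higher (12.9% and 16.5%) in the ΔLEO1 serum comparison, 3 lower and 0 higher (21.8% and 17.7%) in the genotype comparison in 10% serum, 2 lower and 1 higher (17.6% and 15.4%) in the genotype comparison in 0.1% serum and 0 lower and 1 higher (1.02% and 3.06%) in the interaction. With TMM on the genes the listed genes called (of 69 tested) were 7 lower and 25 higher in the wild-type serum comparison, 4 lower and 31 higher in the ΔLEO1 serum comparison, 21 lower and 7 higher in the genotype comparison in 10% serum, 17 lower and 8 higher in the genotype comparison in 0.1% serum and 1 lower and 3 higher in the interaction. With DESeq2 size factors on the genes the members called were 3 lower and 2 higher (16.4% and 16.2%) in the wild-type serum comparison, 2 lower and 3 higher (12.9% and 16.5%) in the ΔLEO1 serum comparison, 3 lower and 0 higher (21.3% and 18.3%) in the genotype comparison in 10% serum, 2 lower and 1 higher (17.4% and 15.6%) in the genotype comparison in 0.1% serum and 0 lower and 1 higher (1.02% and 2.97%) in the interaction. With only the compared groups in the fit the members called were 5 lower and 1 higher (63.3% and 1.4%) in the wild-type serum comparison and 2 lower and 0 higher (12% and 0.544%) in the ΔLEO1 serum comparison. With TMM and without the highest-numbered library of every group the members called were 3 lower and 4 higher (30.8% and 27.8%) in the wild-type serum comparison, 3 lower and 5 higher (28.3% and 29%) in the ΔLEO1 serum comparison, 7 lower and 0 higher (32.5% and 31%) in the genotype comparison in 10% serum, 3 lower and 2 higher (29.7% and 31.2%) in the genotype comparison in 0.1% serum and 0 lower and 5 higher (9.85% and 17.3%) in the interaction. With TMM and the quasi-likelihood test the members called were 3 lower and 1 higher (16.1% and 15.5%) in the wild-type serum comparison, 1 lower and 2 higher (12.1% and 15.5%) in the ΔLEO1 serum comparison, 3 lower and 0 higher (21.4% and 17.9%) in the genotype comparison in 10% serum, 1 lower and 1 higher (17.3% and 15.1%) in the genotype comparison in 0.1% serum and 0 lower and 1 higher (0.453% and 1.55%) in the interaction. Without the highest-numbered library of every group the members called were 8 lower and 0 higher (92.5% and 0.778%) in the ΔLEO1 serum comparison and 2 lower and 0 higher (16.6% and 2.86%) in the genotype comparison in 0.1% serum. Without the highest-numbered library of every group the listed genes called (of 69 tested) were 32 lower and 5 higher (71.8% and 1.5%) in the wild-type serum comparison, 50 lower and 3 higher in the ΔLEO1 serum comparison, 7 lower and 4 higher (7.24% and 7.3%) in the genotype comparison in 10% serum and 22 lower and 2 higher in the genotype comparison in 0.1% serum. With DESeq2 and ERCC size factors the members called were 4 lower and 0 higher (51.8% and 0.816%) in the ΔLEO1 serum comparison and 0 lower and 0 higher (4.49% and 4.4%) in the genotype comparison in 10% serum. With no filter the members called were 3 lower and 0 higher (13.3% and 0.384%) in the ΔLEO1 serum comparison. With the quasi-likelihood test the members called were 0 lower and 0 higher (4.2% and 3.81%) in the genotype comparison in 10% serum. With each library left out in turn, counts of called members that moved by more than 1.5 times had these ranges, with those of the shares in parentheses. In the wild-type serum comparison they ran from 0 to 1 higher (0.574% to 1.45%). In the ΔLEO1 serum comparison they ran from 0 to 8 lower (4.57% to 88.3%) and 0 to 1 higher (0.514% to 1.05%). In the genotype comparison in 10% serum they ran from 0 to 1 lower (3.17% to 6.2%). In the genotype comparison in 0.1% serum they ran from 0 to 2 lower (2.65% to 7.85%) and 0 to 2 higher (2.38% to 10.1%). Apart from these, 363 values kept their direction and side of the threshold under the alternatives and 470 with a library left out. Of the rest, 46 passed the threshold anew and 16 lost it under the alternatives, against 11 and 26 with a library left out. No paired analysis was possible because the library numbers run from 1 to 12 and no 2 groups share one. Every tested member had at least 199 counts in each library, while KLF15 had at most 91, which limits its values.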
